A study of Mus musculus with 9 samples.

Results

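The genes of the Tet dioxygenases and of their supply were followed across 3 sorted populations of the mouse main olfactory epithelium, taken at 4 weeks of age. They are 9 of the 21909 gene symbols in the deposited tables, chosen by name: Tet1, Tet2 and Tet3, their partners Ogt and Cxxc5, and Idh1, Idh2, Idh3a and D2hgdh, which make alpha-ketoglutarate or clear 2-hydroxyglutarate. Poly-A RNA was sequenced from 1 library per population. Horizontal basal cells (HBC), the reserve stem cells of the epithelium, were sorted with an anti-CD54-PE antibody, CD54 being the product of Icam1. Neurog1-EGFP positive cells (GBC) are globose basal cells and young neuronal precursors, and OMP-ires-EGFP positive cells (mOSN) are mature olfactory sensory neurons. The Neurog1 and Omp reporters were the only alleles named in the labels, and EGFP can outlast the activity of the gene that drives it. The number and sex of the animals behind a library are not given in the sources used. ScriptSeq was the kit of the HBC library and an Illumina mRNA kit that of the other two, so that kit and population cannot be told apart wherever HBC is compared. A single library per group allows no test between groups. The series concerns 5-hydroxymethylcytosine during neuronal differentiation, and its 3 samples of that mark and 3 of 5-methylcytosine were not analysed here.

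Tet enzymes oxidise 5-methylcytosine in DNA to 5-hydroxymethylcytosine and further to forms that can be removed. They are dioxygenases that need iron, oxygen and alpha-ketoglutarate, with ascorbate as a helper, and 2-hydroxyglutarate competes with alpha-ketoglutarate for their active site. Isocitrate dehydrogenases make alpha-ketoglutarate from isocitrate, and neurons are known for a high content of 5-hydroxymethylcytosine.

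Values are FPKM, fragment counts scaled to transcript length and to library size, with the interval that the authors' software wrote beside each value. FPKM is per length, which lets levels of different genes be set side by side. Some orders of genes within a library nevertheless changed under the second scaling described below. Read as counting error alone, the intervals imply 18086794 fragments for HBC, 18048845 for GBC and 16456425 for mOSN. These sums are over genes with 1 row and a valid status. Whether the intervals also hold other error of the software's estimate was not tested. They do not cover variation between animals or sorts. Ratios are log2((FPKM + 1)/(FPKM + 1)), a scale that understates the change of low genes, and a gene was called higher or lower at a 2-fold difference on that scale if it reached 1 FPKM in either library. Fold differences without the added 1 carry a 95% interval for counting error, taken from the implied fragments. The implied fragments behind 1 FPKM of a gene differed between libraries. Whether fragments or other error in the intervals differed was not tested. A second scaling with 1 conversion factor per gene in all libraries is given where it moves a value. It too takes the intervals as counting error alone. In bulk samples fewer cells of a type and less RNA per cell cannot be told apart.

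The sorts were set beside marker genes. Icam1, Neurog1 and Omp are among these markers, but the sorts themselves used them, so their levels cannot check the sorts. The 7 horizontal basal cell markers had 21.6 to 451 FPKM in HBC, with highest values of 0.993 in GBC and 1.17 in mOSN. Of 9 precursor markers, Neurog1 had 163 FPKM and Nhlh1 188 FPKM in GBC, while Lgr5 (0.303), Kit (1.15) and Sox2 (1.18) were low there. The 8 mature neuron markers summed to 147 FPKM in HBC, 1082 FPKM in GBC and 9187 FPKM in mOSN. The 18 macrophage and monocyte markers were all above 43.0 FPKM in HBC and summed to 4688 FPKM there, more than the 1103 FPKM of the horizontal basal cell markers, against 7.89 in GBC and 5.82 in mOSN. The 8 sustentacular cell markers summed to 1804, 49.4 and 176 FPKM in HBC, GBC and mOSN, and the 10 immediate early genes to 4990, 382 and 499.97 FPKM. The 8 proliferation markers summed to 13.3, 32.1 and 2.43 FPKM, and the 7 erythroid genes to 99.95, 297 and 80.8 FPKM. The part of these cells in the values below was not tested.

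Tet1 and Tet2 differed more between HBC and the neuronal populations than between mOSN and GBC. Tet1 and Tet2 went opposite ways: Tet1 was near the floor in HBC and present in GBC and mOSN, and Tet2 was highest in HBC. Tet3 was the highest of the 3 in each library as deposited, though Tet2 passed it in HBC with 1 conversion factor per gene. Tet1 and Tet3 carry a CXXC domain that binds CpG sites, while Tet2 has none and its ancestral domain became the separate gene Cxxc4. Their promoter windows, from 250 bases before to 50 after the transcript start (RefSeq, GRCm38.p6, minus strand in each case), are shown because the CG dinucleotide, in capitals, is the site these enzymes act on. They lie at chr10:62887275-62887574 for Tet1, chr3:133544341-133544640 for Tet2 and chr6:83441629-83441928 for Tet3.
Tet1: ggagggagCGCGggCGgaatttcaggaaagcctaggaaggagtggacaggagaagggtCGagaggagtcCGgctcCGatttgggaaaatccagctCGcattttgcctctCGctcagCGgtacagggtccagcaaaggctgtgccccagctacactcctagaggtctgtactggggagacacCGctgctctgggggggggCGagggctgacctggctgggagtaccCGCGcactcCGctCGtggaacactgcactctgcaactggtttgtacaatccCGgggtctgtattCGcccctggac
Tet2: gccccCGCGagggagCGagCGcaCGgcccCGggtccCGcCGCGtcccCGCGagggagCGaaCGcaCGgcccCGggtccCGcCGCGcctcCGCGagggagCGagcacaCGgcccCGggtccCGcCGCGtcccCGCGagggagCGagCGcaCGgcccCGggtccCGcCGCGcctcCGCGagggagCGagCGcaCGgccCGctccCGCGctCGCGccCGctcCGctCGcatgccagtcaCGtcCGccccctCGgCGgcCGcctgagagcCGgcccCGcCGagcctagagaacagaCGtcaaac
Tet3: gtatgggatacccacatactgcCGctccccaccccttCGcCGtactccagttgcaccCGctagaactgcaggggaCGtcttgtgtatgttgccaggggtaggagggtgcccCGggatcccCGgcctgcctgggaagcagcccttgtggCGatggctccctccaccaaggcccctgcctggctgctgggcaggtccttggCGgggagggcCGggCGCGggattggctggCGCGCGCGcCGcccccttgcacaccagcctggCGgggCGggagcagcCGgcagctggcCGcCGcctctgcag
The Tet2 window held 57 CG dinucleotides, more than 99.8% of the 32851 windows of that length in the table. The Tet3 window held 22 and the Tet1 window 17, more than 76.9% and 68.6% of the windows, against a median of 7. The letters CCCNNGGG, the core bound by Ebf factors, and CAGATG or its reverse complement CATCTG, an E-box of neurogenins, were searched on both strands, of which the first reads the same on either, and occurred in none of the 3 windows. They occurred in 13.7% and 17.2% of all windows.

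Tet1 (chromosome 10, 62267318 to 62342762, mm9) had 0.248 FPKM in HBC (interval 0.211 to 0.285, 179 implied fragments), 3.80 in GBC (3.58 to 4.03) and 3.31 in mOSN (3.096 to 3.53). The HBC interval lay far below the other two, and the GBC and mOSN intervals were narrowly apart. Tet1 was 15.3-fold higher in GBC than in HBC (13.1 to 17.9) and 13.4-fold higher in mOSN than in HBC (11.4 to 15.7), or 1.94 and 1.79 on the log2(FPKM + 1) scale. With 5 FPKM added in place of 1, both ratios missed the call, at 0.75 and 0.66. The levels of Tet1 with 1 conversion factor per gene were 0.441, 2.80 and 2.53 FPKM in HBC, GBC and mOSN, and the log2 ratios against HBC 1.40 and 1.29. Between mOSN and GBC the fold was 0.872 (0.799 to 0.950).

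Tet2 (chromosome 3, 133126641 to 133207354) had 8.57 FPKM in HBC (8.296 to 8.85), 2.81 in GBC (2.596 to 3.02) and 3.36 in mOSN (3.11 to 3.61). It was 0.328-fold in GBC relative to HBC (0.302 to 0.355) and 0.392-fold in mOSN relative to HBC (0.362 to 0.424), with log2 ratios of -1.33 and -1.14, which missed the call with 5 FPKM added (-0.80 and -0.70). The levels of Tet2 with 1 conversion factor per gene were 13.1, 2.33 and 2.65 FPKM in HBC, GBC and mOSN, and these ratios were -2.08 and -1.95. Macrophage markers accompany the HBC value of Tet2, with Csf1r at 202 FPKM and Ptprc at 63.4 FPKM, and under 0.2 FPKM in GBC and mOSN, and their part in the Tet2 value was not tested.

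Tet3 (chromosome 6, 83312368 to 83391672) had 11.7 FPKM in HBC (11.4 to 12.1), 19.9 in GBC (19.4 to 20.3) and 20.3 in mOSN (19.7 to 20.8). Its GBC and mOSN intervals overlapped, with a fold of 1.02 between mOSN and GBC (0.986 to 1.05). That likeness was not seen in the implied fragments, which take the intervals as counting error alone. They were 5650 in mOSN and 8932 in GBC. The implied fragments behind 1 FPKM of Tet3 in mOSN were 0.621 times those in GBC. With 1 conversion factor per gene in all libraries, the log2 ratio of mOSN over GBC was -0.50, against 0.03 as deposited. Against HBC, Tet3 was 1.69-fold in GBC and 1.73-fold in mOSN, and it was not called 2-fold different.

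The make-up of the Tet family differed by population, with no test possible. Of the summed Tet FPKM, Tet3 made up 57.1% for HBC, 75.0% for GBC and 75.2% for mOSN. Tet2 made up 41.7%, 10.6% and 12.5%, and Tet1 1.21%, 14.4% and 12.3%. The sums themselves were 20.5, 26.5 and 26.9 FPKM, and 25.2, 29.3 and 21.9 with 1 conversion factor per gene. With that factor Tet2 passed Tet3 in HBC, at 51.9% against 46.3%.

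**Figure D1:**
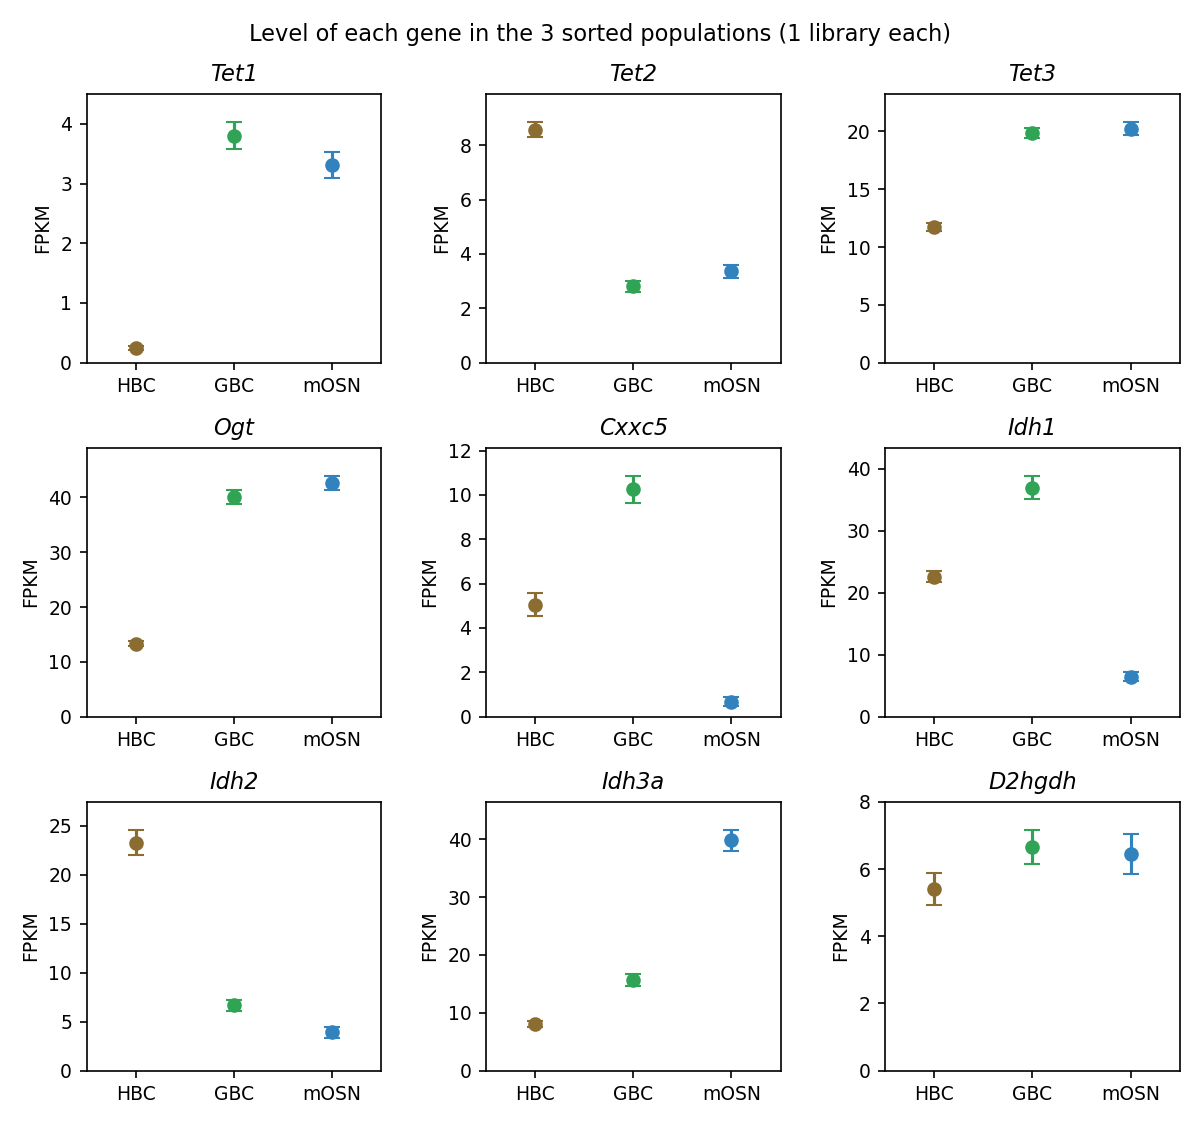
FPKM of each of the 9 genes (vertical axes, from 0) in the HBC, GBC and mOSN libraries, 1 library each, with the deposited intervals as error bars. Tet1 was near 0 in HBC, Tet2 and Idh2 were highest there, Idh3a was highest in mOSN at 39.8 FPKM, and Cxxc5 and Idh1 were highest in GBC, all as deposited (Idh1 was highest in HBC with 1 conversion factor per gene).

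Genes with the most similar pattern were found by the distance between log2(FPKM + 1) values over the 3 libraries after each gene's mean was subtracted, among genes of like mean level. The 3 nearest to Tet1 were Zbtb5, Tmem116 and Mrpl22 (distances 0.01, 0.03 and 0.03). Zbtb5 had 1.06, 6.83 and 6.13 FPKM in HBC, GBC and mOSN. The 3 nearest to Tet2 were 2210013O21Rik, Ext1, a heparan sulfate polymerase, and Cpne3 (0.02, 0.04 and 0.04), with Ext1 at 9.18, 3.18 and 3.78 FPKM. The 3 nearest to Tet3 were Jmjd8, Rad23b and Prdx4 (0.01, 0.02 and 0.03), with Jmjd8, a gene of the JmjC family, at 9.29, 15.8 and 16.1 FPKM. The likeness rests on 3 libraries, with 4165 to 7260 candidate genes per Tet gene.

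The isocitrate dehydrogenase genes exchanged rank along the lineage. Idh1, the NADP-dependent enzyme of cytosol and peroxisome, was highest in GBC as deposited and in HBC with 1 conversion factor per gene. Idh2, its mitochondrial counterpart, was highest in HBC, and Idh3a, the catalytic subunit of the NAD-dependent enzyme of the citric acid cycle, was highest in mOSN. The promoter windows of the NADP-dependent pair (RefSeq, GRCm38.p6, minus strand, CG in capitals) are shown because both genes were called lower in mOSN than in HBC. They lie at chr1:65186430-65186729 for Idh1 and chr7:80115301-80115600 for Idh2.
Idh1: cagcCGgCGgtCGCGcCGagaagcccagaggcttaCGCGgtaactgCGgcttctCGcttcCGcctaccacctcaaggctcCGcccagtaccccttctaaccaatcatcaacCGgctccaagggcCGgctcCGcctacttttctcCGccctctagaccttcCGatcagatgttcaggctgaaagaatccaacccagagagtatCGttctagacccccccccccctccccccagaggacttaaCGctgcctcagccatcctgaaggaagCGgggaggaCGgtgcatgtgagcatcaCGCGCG
Idh2: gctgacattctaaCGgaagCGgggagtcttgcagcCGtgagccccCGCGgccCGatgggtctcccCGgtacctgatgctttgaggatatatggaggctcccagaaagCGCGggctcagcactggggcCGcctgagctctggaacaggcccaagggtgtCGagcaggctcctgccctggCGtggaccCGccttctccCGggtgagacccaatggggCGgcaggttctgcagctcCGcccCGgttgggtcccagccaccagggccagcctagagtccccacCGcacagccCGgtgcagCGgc
The Idh1 window held 23 CG dinucleotides and the Idh2 window 20, more than 78.5% and 73.5% of all windows. CAGATG was found once in the Idh1 window, and CCCNNGGG once in the Idh2 window. A further transcript start is listed for Idh1, and its window, not shown, held CAGATG 0 times.

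Idh1 (chromosome 1, 65205190 to 65233053) had 22.6 FPKM in HBC (21.8 to 23.5), 37.0 in GBC (35.2 to 38.8) and 6.47 in mOSN (5.71 to 7.23). No intervals overlapped. In mOSN it was 0.175-fold relative to GBC (0.155 to 0.198) and 0.286-fold relative to HBC (0.254 to 0.323), with log2 ratios of -2.35 and -1.66. Between GBC and HBC the order depended on the scaling. The implied fragments were 1654 in GBC and 2857 in HBC. The log2 ratio was 0.68 as deposited and -0.76 with 1 conversion factor per gene. With that factor the levels of Idh1 were 43.6, 25.3 and 4.90 FPKM in HBC, GBC and mOSN, and the log2 ratio of mOSN over HBC was -2.92.

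Idh2 (chromosome 7, 87239734 to 87260236) had 23.3 FPKM in HBC (22.0 to 24.6), 6.698 in GBC (6.13 to 7.26) and 3.92 in mOSN (3.36 to 4.48). Its level was lower in GBC than in HBC and lower again in mOSN, with no overlap. The macrophage markers given above were also mainly in HBC, and their part in the Idh2 value was not tested. The fold was 0.288 for GBC over HBC (0.261 to 0.317) and 0.168 for mOSN over HBC (0.145 to 0.196), with log2 ratios of -1.66 and -2.30. The log2 ratio of mOSN over GBC was -0.65, which missed the call, and it was -1.18 with 1 conversion factor per gene.

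Idh3a (chromosome 9, 54434318 to 54452469) had 8.07 FPKM in HBC (7.55 to 8.59), 15.6 in GBC (14.6 to 16.7) and 39.8 in mOSN (38.02 to 41.5). It stepped up at each stage as deposited. The fold was 2.54 for mOSN over GBC (2.35 to 2.75) and 4.93 for mOSN over HBC (4.56 to 5.32), with log2 ratios of 1.29 and 2.17. On the TPM scale the log2 ratio of mOSN over GBC was 0.96 and missed the call. The fold of GBC over HBC was 1.94 (1.77 to 2.13), and its log2 ratio of 0.88 was -0.16 with 1 conversion factor per gene. That factor gave Idh3a levels of 13.4, 11.9 and 31.6 FPKM in HBC, GBC and mOSN, and a log2 ratio of mOSN over HBC of 1.18. The other subunits had 26.0, 44.3 and 73.1 FPKM (Idh3b) and 22.0, 49.8 and 32.4 FPKM (Idh3g) in HBC, GBC and mOSN, so that Idh3b, like Idh3a, was highest in mOSN and Idh3g in GBC.

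Summed over Idh1, Idh2 and Idh3a, the level was 54.0 FPKM in HBC, 59.3 FPKM in GBC and 50.2 FPKM in mOSN. Within that sum, Idh3a made up 15.0% in HBC, 26.4% in GBC and 79.3% in mOSN. Idh1 made up 41.9%, 62.3% and 12.9%, and Idh2 43.1%, 11.3% and 7.82%. With 1 conversion factor per gene the sums were 78.1, 45.9 and 39.8 FPKM in HBC, GBC and mOSN, and the share of Idh3a was 17.2%, 25.8% and 79.4%. That of Idh1 was then 55.9%, 55.1% and 12.3%, and that of Idh2 27.0%, 19.1% and 8.34%.

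**Figure D2:**
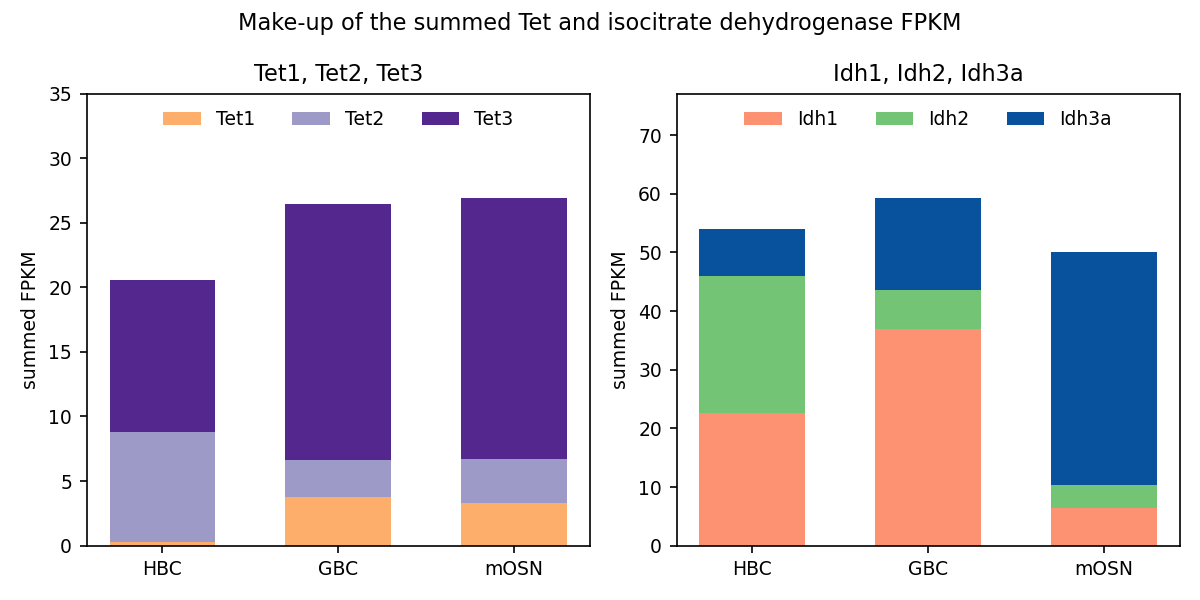
Summed FPKM (vertical axes, from 0) of the 3 Tet genes, left, and of Idh1, Idh2 and Idh3a, right, stacked by gene in the HBC, GBC and mOSN libraries. Tet2 takes 41.7% of the Tet sum in HBC, and Idh3a takes 79.3% of the isocitrate dehydrogenase sum in mOSN.

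D2hgdh, the mitochondrial dehydrogenase that turns D-2-hydroxyglutarate back into alpha-ketoglutarate, varied least of the 9 as deposited. D2hgdh (chromosome 1, 95721817 to 95748751) had 5.41 FPKM in HBC (4.94 to 5.88), 6.66 in GBC (6.16 to 7.16) and 6.44 in mOSN (5.85 to 7.03). The mOSN interval overlapped both others, and those of GBC and HBC were apart. The fold was 0.968 for mOSN over GBC (0.862 to 1.09), 1.23 for GBC over HBC (1.10 to 1.38) and 1.19 for mOSN over HBC (1.05 to 1.35). The sign of both ratios against HBC turned with median-of-ratios scaling, to -0.18 for GBC and -0.29 for mOSN, and that of mOSN also turned on the TPM scale.

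Of the partners, Ogt was higher in both neuronal populations than in HBC as deposited, and Cxxc5 was highest in GBC and nearly gone from mOSN. Ogt encodes the transferase that attaches N-acetylglucosamine to proteins and that binds Tet2 and Tet3. Ogt (chromosome X, 98835403 to 98879690) had 13.3 FPKM in HBC (12.9 to 13.8), 40.1 in GBC (38.9 to 41.4) and 42.6 in mOSN (41.3 to 43.8). The GBC and mOSN intervals overlapped, and HBC lay below both. The fold was 3.01 for GBC over HBC (2.88 to 3.15) and 3.20 for mOSN over HBC (3.06 to 3.34), with log2 ratios of 1.52 and 1.61. The implied fragments were much closer, at 3572 for HBC, 4084 for GBC and 4474 for mOSN, and with 1 conversion factor per gene both calls ended, at 0.19 and 0.45. The ratio of Ogt to the summed Tet FPKM was 0.648 in HBC, 1.51 in GBC and 1.58 in mOSN as deposited, and 0.965, 0.953 and 1.53 with that factor.

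Ogt lies on the X chromosome, and the libraries differed in sex-linked transcripts, which were looked up after the values were seen. The Y-linked genes Eif2s3y and Kdm5d were listed at 0 in mOSN. Eif2s3y had 2.54 FPKM in HBC and 16.2 FPKM in GBC, while Kdm5d had 0.703 and 2.61 FPKM and Uty 0.493 and 1.61 FPKM. Ddx3y, also Y-linked, went the other way, with 4.44 FPKM in HBC and 2.25 FPKM in GBC, and had 2.89e-04 FPKM in mOSN. Xist, the RNA of the inactive X, had 30.7 FPKM in HBC, 34.4 FPKM in GBC and 66.7 FPKM in mOSN. The part of animal sex in the Ogt values was not tested.

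Cxxc5 encodes a CXXC zinc finger protein of the same kind as Cxxc4, which in mammalian cells is known to lower Tet2 protein. Cxxc5 (chromosome 18, 35989472 to 36021342) had 5.05 FPKM in HBC (4.55 to 5.56), 10.2 in GBC (9.65 to 10.8) and 0.669 in mOSN (0.463 to 0.876, 42 implied fragments). No intervals overlapped. In mOSN it was 0.0653-fold relative to GBC (0.0480 to 0.0889), a log2 ratio of -2.75, and 0.132-fold relative to HBC (0.0964 to 0.182), a log2 ratio of -1.86, which missed the call with 5 FPKM added (-0.83). Between GBC and HBC the fold was 2.03 (1.81 to 2.27), and the log2 ratio of 0.89 missed the call as deposited and passed it with 1 conversion factor per gene (1.39). The 3 nearest patterns were those of Snora52, Frmd4a and Cd1d1 (distances 0.08, 0.15 and 0.20), with Frmd4a at 11.1, 18.4 and 2.05 FPKM in HBC, GBC and mOSN. Cxxc4 itself was low, at 0.884 FPKM in HBC, 1.35 FPKM in GBC and 2.27 FPKM in mOSN.

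Ordered by deposited level within a library, Idh2 and Idh1 led in HBC and their intervals overlapped, while with 1 conversion factor per gene Idh1 led at 43.6 FPKM, ahead of Ogt (24.3) and Idh2 (21.1). Ogt led in GBC, ahead of Idh1. Ogt and Idh3a led in mOSN with overlapping intervals. Other neighbours whose intervals overlapped were Tet2 with Idh3a and D2hgdh with Cxxc5 in HBC, and Idh2 with D2hgdh in GBC. In mOSN they were Idh1 with D2hgdh, Idh2 with Tet2 and Tet2 with Tet1.

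All 9 genes passed the filter on low values in each comparison. In mOSN against GBC, 1 gene was called higher (Idh3a) and 2 lower (Cxxc5 and Idh1), where 22.4% of 12551 genes tested were called higher and 10.3% lower. In GBC against HBC, 2 were called higher (Tet1 and Ogt) and 2 lower (Tet2 and Idh2), where 34.6% of 13736 genes were called higher and 23.4% lower. In mOSN against HBC, 3 were called higher (Tet1, Ogt and Idh3a) and 4 lower (Tet2, Cxxc5, Idh1 and Idh2), where 40.4% of 14092 genes were called higher and 23.0% lower. The median log2 ratio of the 9 genes was -0.04, 0.71 and 0.22 in these comparisons, beside 0.24, 0.46 and 0.63 over all genes tested. Of all genes called, the share higher in mOSN than in GBC was 68.5% as deposited, 43.1% with libraries rescaled to a common sum (TPM scale) and 50.6% with 1 conversion factor per gene. The share higher in GBC than in HBC was 59.7%, and 45.6% with median-of-ratios scaling. The share higher in mOSN than in HBC was 63.7%, and 50.7% to 51.5% under all 3 rescalings. The 3 comparisons share libraries and are not independent of each other.

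**Figure D3:**
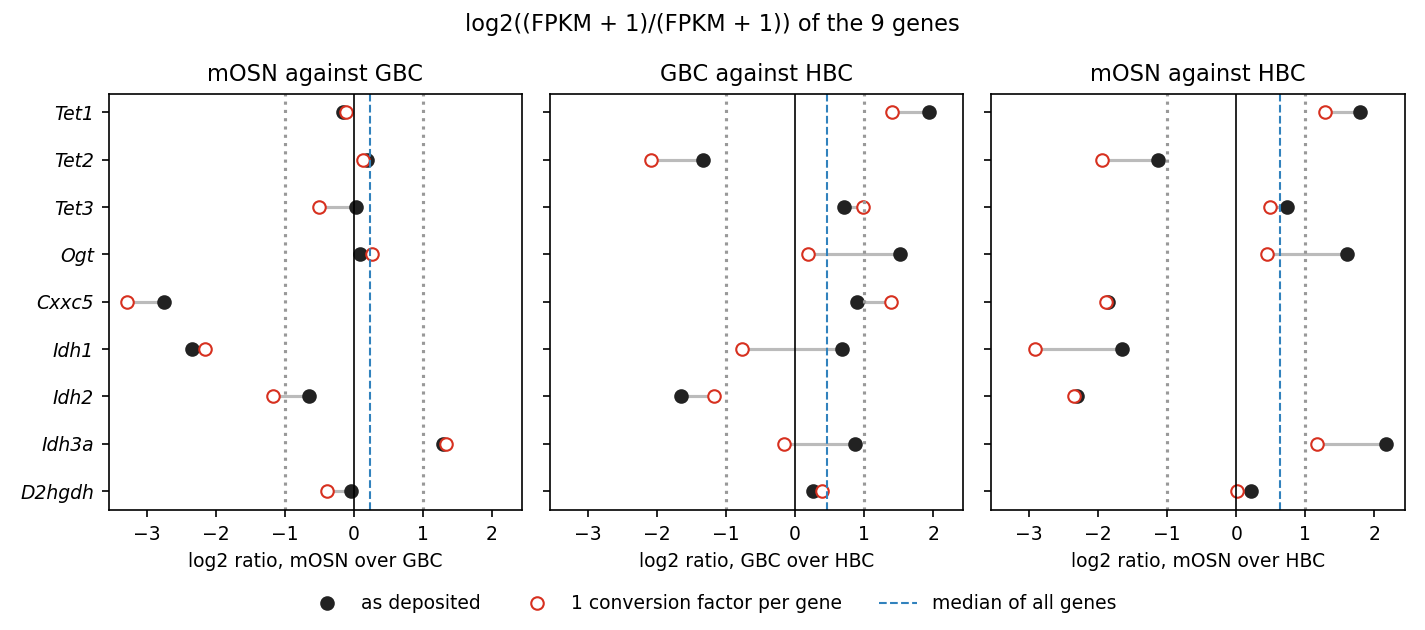
log2((FPKM + 1)/(FPKM + 1)) of the 9 genes (horizontal axes) for mOSN over GBC, GBC over HBC and mOSN over HBC, as deposited (filled) and with 1 conversion factor per gene (open). Dotted lines mark a 2-fold difference and the dashed line the median of all genes tested. Ogt against HBC moves inside the dotted lines and Idh1 of GBC over HBC changes side, while Cxxc5 and Idh1 of mOSN over GBC stay below -1.

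As deposited, 22.4% of all genes tested were called higher and 10.3% lower in mOSN against GBC. For this and the later lists, the shares were 34.6% and 23.4% in GBC against HBC and 40.4% and 23.0% in mOSN against HBC. Beside these shares, the further partners and regulators of Tet proteins held few calls between mOSN and GBC as deposited. Of 22 genes, Ogt and Cxxc5 among them, 16 were measured, 0 higher and 1 lower in mOSN (Cxxc5), with a median of -0.08. Hcfc1, a scaffold modified by Ogt, stood at 17.6 FPKM in mOSN against 34.5 FPKM in GBC. Ddb1, of the ubiquitin ligase that modifies Tet proteins, had 46.3 and 86.2 FPKM. Zfp281, a zinc finger factor, had 5.42 and 2.26 FPKM, and all 3 missed the call. The count with 1 conversion factor per gene was 0 higher and 4 lower, as Hcfc1 (-1.25), Parp1 (-1.13) and Ebf1 (-1.08) joined Cxxc5. Relative to HBC, 7 of 18 in GBC were higher and 2 lower (median 0.65), or 6 and 4 with that factor. Ebf1, a factor of olfactory neurons that binds Tet2 in other cells, had 116.9 FPKM in GBC and 4.47 in HBC, and the ligase subunit Rbx1 had 51.2 and 5.06 FPKM. Rest, the repressor of neuronal genes, which binds Tet3, had 0.0917 FPKM in GBC and 7.94 in HBC. In mOSN against HBC 5 of 18 were higher and 3 lower (median 0.48), or 2 and 4 with that factor, and Rest had 0.169 FPKM in mOSN. Mgea5, which removes the sugar that Ogt attaches, had 22.8 FPKM in HBC, 49.8 FPKM in GBC and 65.5 FPKM in mOSN, and like Ogt it lost its call against HBC with 1 conversion factor per gene (0.43 and 0.29).

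Enzymes that make alpha-ketoglutarate held calls in both directions. Of 15 genes, which include Idh1, Idh2 and Idh3a, 13 were measured. In mOSN against GBC 4 were higher and 3 lower (median 0.08), and with 1 conversion factor per gene 1 was higher and 4 lower (median -0.37). The aminotransferases Got1 (40.9 FPKM in mOSN and 14.7 in GBC) and Gpt2 (48.6 and 19.9 FPKM) were higher, and both missed the call with 1 conversion factor per gene, at 0.99 and 0.63. Relative to HBC, 3 were higher and 4 lower in GBC (median 0.65), or 3 and 6 with that factor (median -0.76). Gpt2 had 19.9 FPKM in GBC and 1.56 in HBC, Got2 had 49.0 and 18.9 FPKM, and the branched-chain aminotransferase Bcat2 had 1.06 and 8.24 FPKM. In mOSN against HBC 4 were higher and 4 lower (median 0.28), or 3 and 5 with that factor (median -0.02), with Bcat2 at 0.0224 FPKM in mOSN and 8.24 in HBC.

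Of the other genes of the citric acid cycle, the share called higher was below that of all genes in mOSN against GBC (22.4%) and GBC against HBC (34.6%), and near it in mOSN against HBC (40.4%). Their median log2 ratio, however, was above that of all genes in each comparison (0.24, 0.46 and 0.63 in that order). With 1 conversion factor per gene their medians were 0.38, 0.37 and 0.67, beside -0.07, 0.22 and 0.11 for all genes. Called lower were 23.4% and 23.0% of all genes in the comparisons with HBC. All 17 were measured. In mOSN against GBC 3 were higher, Sucla2 (43.4 FPKM in mOSN and 15.8 in GBC), Dld (38.3 and 16.7 FPKM) and Mdh1 (166 and 74.8 FPKM), and 1 lower, Ogdhl (1.43 and 7.26 FPKM), with a median of 0.54. Ogdhl is a relative of Ogdh, the subunit of the complex that consumes alpha-ketoglutarate, and Ogdh had 47.4 FPKM in mOSN and 32.1 in GBC. Relative to HBC, 4 were higher and 0 lower in GBC (median 0.59), or 5 and 2 with 1 conversion factor per gene, with citrate synthase, Cs, at 93.6 FPKM in GBC against 26.7 FPKM in HBC. In mOSN against HBC 8 were higher and 0 lower (median 0.98), a count that was 4 higher and 1 lower with 1 conversion factor per gene.

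Genes tied to 2-hydroxyglutarate were led by Ldha, the lactate dehydrogenase subunit that can form its L form under low oxygen. Its level was 63.8 FPKM in HBC, 15.4 FPKM in GBC and 2.45 FPKM in mOSN, a log2 ratio of -1.98 for GBC over HBC and -2.25 for mOSN over GBC. Of 5 genes, 3 were measured in mOSN against GBC, with 0 higher and 1 lower (median -0.04). Between GBC and HBC 4 were measured, with 0 higher and 2 lower (median -0.69). In mOSN against HBC 4 were measured, with 1 higher and 2 lower (median -0.86), or 0 and 2 with 1 conversion factor per gene. Phgdh, the entry enzyme of serine synthesis, had 3.87, 0.559 and 0.268 FPKM. Of 6 carriers of alpha-ketoglutarate and related acids, 1 of 3 measured was lower in mOSN than in GBC, Slc25a10 (1.36 FPKM in mOSN and 6.08 in GBC), and none higher (median -0.67), or 2 lower with that factor. Between GBC and HBC 1 of 5 was lower in GBC and none higher (median -0.83), or 2 lower with a median of -0.03 with that factor, and in mOSN against HBC 4 of 5 were lower and none higher (median -1.09). Slc25a11, the mitochondrial oxoglutarate carrier, had 18.8 FPKM in HBC, 16.6 FPKM in GBC and 28.2 FPKM in mOSN.

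Iron and ascorbate genes stood mainly in HBC. In GBC against HBC 10 of 17 measured were lower and 1 higher (median -1.55), and in mOSN against HBC 12 of 17 were lower and 1 higher (median -1.42). Of all genes tested, 23.4% and 23.0% were called lower in these comparisons, and 34.6% and 40.4% higher. The ascorbate transporter Slc23a2 had 2.57 FPKM in GBC and 48.9 in HBC, and Gsto1, which can reduce dehydroascorbate, had 0.519 and 167 FPKM. The iron exporter Slc40a1 had 0.111 and 12.4 FPKM, and the ferroxidase Cp 0.160 and 22.2 FPKM. The higher gene in both was Ireb2, an iron sensor, whose ratio changed sign with 1 conversion factor per gene (-0.27 and -0.23). The macrophage and sustentacular markers given above were also mainly in HBC, and their part in this list was not tested. In mOSN against GBC 1 of 10 was higher and 1 lower (median 0.37), the ferritin chains Fth1 (375 FPKM in mOSN and 169 in GBC) and Ftl1 (88.9 and 372 FPKM). Ferritin genes have many near-identical copies, so these values are uncertain, and Fth1 missed the call with 1 conversion factor per gene (0.62).

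Other enzymes that use the same cofactors were compared as the family of 2-oxoglutarate dioxygenases, 56 genes. In mOSN against GBC 4 of 47 measured were higher and 4 lower (median 0.08), beside 22.4% and 10.3% of all genes. Of the 4 lower, Kdm5d (0 FPKM in mOSN and 2.61 in GBC) and Uty (1.55e-04 and 1.61 FPKM) are Y-linked, and the part of animal sex was not tested. The histone demethylases Kdm4a (12.7 FPKM in mOSN and 30.5 in GBC) and Kdm4b (7.16 and 15.8 FPKM) were lower. The aspartyl hydroxylase Asph (11.5 and 3.34 FPKM) and the RNA demethylase Alkbh5 (14.1 and 5.53 FPKM) were higher, and Alkbh5 missed the call with 1 conversion factor per gene (0.39). In GBC against HBC 10 of 51 were higher and 7 lower (median 0.25), with Jarid2, a Polycomb partner without demethylase activity, at 52.7 FPKM in GBC against 7.92 FPKM in HBC, and Kdm5b at 33.4 against 5.75 FPKM. In mOSN against HBC 11 of 50 were higher and 9 lower (median 0.45), with Kdm6b at 23.9 FPKM in mOSN and 89.1 in HBC. With 1 conversion factor per gene the count in mOSN against HBC was 7 higher and 16 lower. For GBC against HBC it was 12 higher and 10 lower, and in mOSN against GBC 2 higher and 8 lower. 

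**Figure D4:**
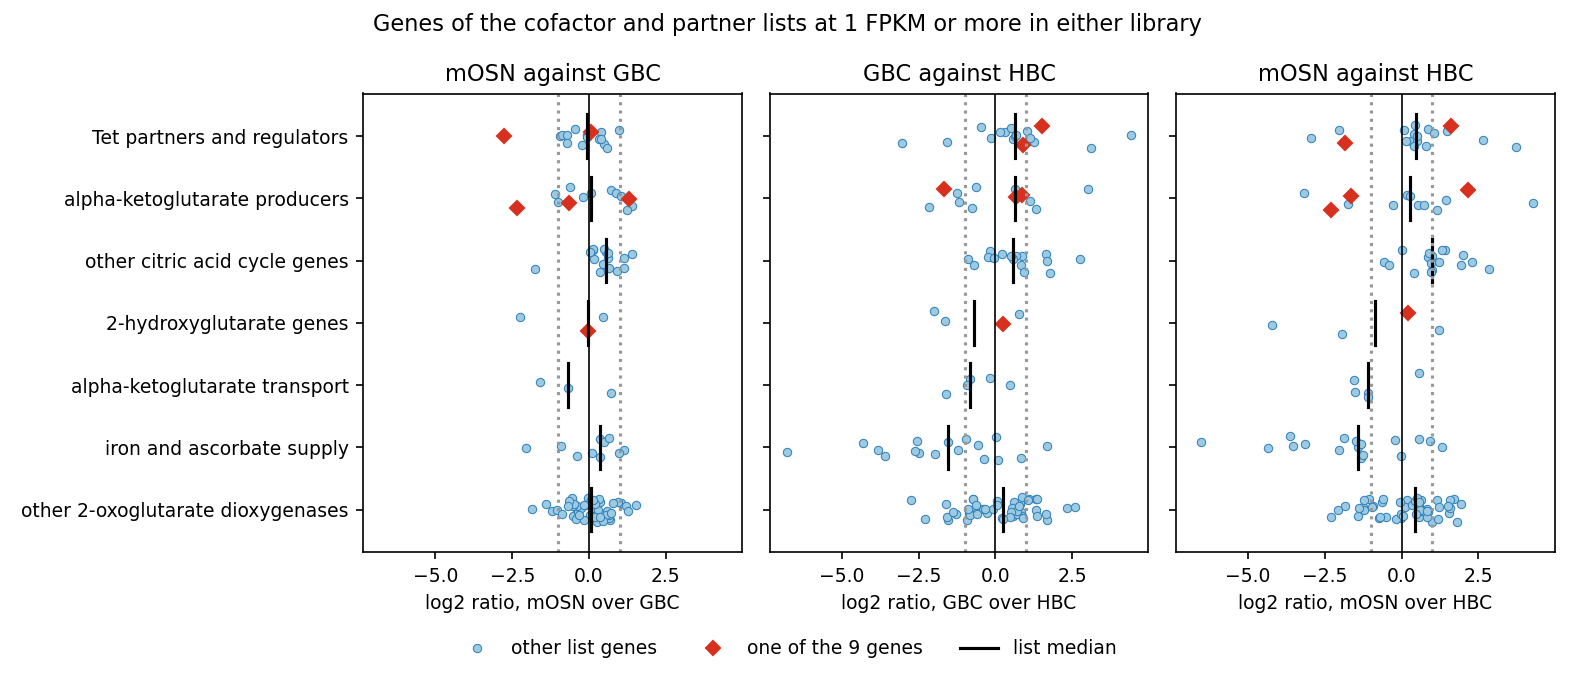
log2 ratios (horizontal axes) of the genes of 7 lists that reached 1 FPKM in either library, for mOSN over GBC, GBC over HBC and mOSN over HBC. Diamonds are the listed genes among the 9, black bars are list medians and dotted lines a 2-fold difference. The iron and ascorbate list lies mostly left of 0 in both comparisons with HBC (medians -1.55 and -1.42).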

How the data were processed

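Poly-A RNA was measured in 3 sorted populations with 1 library each. For each library the authors deposited FPKM per gene with interval bounds and a status flag, as the file headers name them (22345 rows, 21909 symbols). Bowtie, TopHat, Cufflinks and mm9 come from the submitters' processing notes, which state no versions; annotation and settings: not given in the sources used here. Rows of 1 symbol were added up (222 symbols, none of the 9 genes). FAIL and LOWDATA rows were kept. Implied fragments were taken as (2 × FPKM/half-width of the interval) squared, as if the interval held counting error alone. The alternative with 1 conversion factor per gene divided each library's fragment shares by the geometric mean, over libraries, of the share behind 1 FPKM. No count test was run.

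Members and lists were chosen with earlier results of these data known. Named list genes were up to 4 per list and comparison by the size of the ratio among genes reaching 5 FPKM, and the 3 nearest patterns of Tet1, Tet2, Tet3 and Cxxc5. Others, such as Cxxc4, Mgea5, Idh3b, Idh3g, Ogdh, Phgdh, Ireb2, Alkbh5, Parp1 and the sex-linked genes, were named after their values were seen. Some genes that the rule or the lists hold are not reported here by name. Through synonyms, 3 list symbols were matched. Promoter windows existed for 7 of the 9 genes, in GRCm38.p6, and no coordinate was converted between builds. Starts were raised by 1. The code of the call rule was run on simulated data with counting error alone and changes well above the call limit. That run does not bear on variation between animals, sorts or kits. Python 3.11.15, numpy 2.4.6, pandas 2.3.3 and matplotlib 3.10.9 were used.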

Additional observations from a re-analysis of the deposited data

How the results depend on the processing

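No paired analysis was possible because each population had 1 library, and for the same reason no replicate could be left out. Of 27 ratios of the 9 genes, 14 were called, and all 14 kept their sign under the 11 alternatives. Only the rescalings could change a sign: TPM scale, median-of-ratios scaling and 1 conversion factor per gene. A changed pseudocount, filter, row choice or call limit cannot turn the sign of these genes, so those alternatives do not test it. Under all 11 alternatives 4 called ratios kept their call (Cxxc5 and Idh1 in mOSN against GBC, Idh2 and Idh3a in mOSN against HBC). Of the 13 ratios not called, 7 changed sign under at least 1 alternative, among them Tet2 (-0.11), Tet3 (-0.35) and Ogt (-0.29) in mOSN against GBC on the TPM scale, and 2 became called. With a pseudocount of 5 FPKM the Tet1 ratios against HBC fell below the call, at 0.75 for GBC and 0.66 for mOSN, and those of Tet2 were -0.80 and -0.70.

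Counts that moved by over 1.5 times were the following, with 2814 higher and 1296 lower (mOSN against GBC), 4757 and 3210 (GBC against HBC) and 5692 and 3244 (mOSN against HBC) as the base. With a pseudocount of 5 FPKM they were 1283 and 481, 2176 and 1730, and 3251 and 1735 genes, and of the 9 genes 1 was higher and 1 lower in GBC against HBC and 2 lower in mOSN against HBC. With a call at 4-fold they were 650 and 313, 1530 and 1686, and 2648 and 1771 genes. Of the 9 genes 0 were then higher in mOSN against GBC, 0 higher and 0 lower in GBC against HBC, and 1 higher (Idh3a) and 1 lower (Idh2) in mOSN against HBC. With a filter at 5 FPKM, 801 genes were lower in mOSN against GBC and 2095 in mOSN against HBC, and 1 of the 9 was higher in GBC against HBC. On the TPM scale, 3406 genes were lower in mOSN against GBC and 5196 in mOSN against HBC, and 0 of the 9 were higher in mOSN against GBC. With 1 conversion factor per gene, 2168 genes were lower in mOSN against GBC. Shares and medians were judged by limits other than 1.5 times, the interval for counting error of a share and a fixed log2 step for a median. With that factor the Tet1, Tet2 and Tet3 shares were 1.75%, 51.9% and 46.3% in HBC and 9.56%, 7.96% and 82.5% in GBC. In mOSN the share of Tet1 was 11.5% and that of Tet3 76.4%. The median of all genes in mOSN against GBC, 0.24 as deposited, was -0.18 on the TPM scale and -0.07 with 1 conversion factor per gene. In GBC against HBC it was 0.46, and 0.00 with median-of-ratios scaling, and in mOSN against HBC 0.63, and 0.10 with that scaling. The cause of these shifts was not tested. Depth limited Cxxc5 in mOSN most, at 42 implied fragments.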
